A study of Mus musculus with 9 samples.

Results

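The adult globin genes were read in single bone marrow cells of 3 mouse strains. They are the alpha genes Hba-a1 and Hba-a2 and the beta genes Hbb-bs and Hbb-bt, which encode the chains of adult haemoglobin. The genes were chosen by symbol. Of the 5 symbols listed, these 4 had values among the 31053 genes counted, and the chaperone Ahsp was not analysed here. The mice were 3 NZB, 3 NZW and 3 NZBWF1, all female and 9 to 10 weeks old, with 1 library each from femur marrow. NZB and NZW are inbred parents, and NZBWF1 is their first-generation hybrid, which is used as a model of lupus. The labels give no treatment for any mouse, and the methods state that all were delivered at once. The marrow had passed a red cell lysis buffer, so the marrow as sequenced was depleted of mature red cells, which limits it as a picture of terminal red cell formation.

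Adult haemoglobin is a tetramer of alpha and beta chains, each holding a haem group. Red cell precursors switch their globin genes to a very high level as they mature, under GATA1, KLF1 and a distal enhancer at each locus, while haem synthesis and iron uptake rise beside them. Chains of one kind in excess are unstable, so the balance of alpha to beta is a long-studied property of red cell precursors. Inbred mouse strains can carry different beta-globin haplotypes, and the reference genome holds that of only 1 strain.

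The positions below are on GRCm38 (mm10), from GENCODE vM21, whose gene identifiers equal those of the counted genes. Hbb-bt (ENSMUSG00000073940) lies at chr7:103812524-103813996 and Hbb-bs (ENSMUSG00000052305) at chr7:103826534-103828096, both on the minus strand with 12537 bases between them. Hba-a1 (ENSMUSG00000069919) lies at chr11:32283511-32284465 and Hba-a2 (ENSMUSG00000069917) at chr11:32296489-32297298, both on the plus strand with 12023 bases between them. The promoters are shown because the 4 genes moved together with stage but in unequal proportions between strains. Each line gives the 150 bases before the RefSeq start on GRCm38.p6, 5′ to 3′ in the direction of transcription, with the motif CCAAT, the motif CACCC and the motif ATATAA, or their reverse complements, in capitals.
Hba-a1, chr11:32283522-32283671, plus strand: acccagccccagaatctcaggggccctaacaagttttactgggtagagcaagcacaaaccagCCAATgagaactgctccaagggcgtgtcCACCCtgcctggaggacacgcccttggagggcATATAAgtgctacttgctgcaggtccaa
Hbb-bs, chr7:103827929-103828078, minus strand: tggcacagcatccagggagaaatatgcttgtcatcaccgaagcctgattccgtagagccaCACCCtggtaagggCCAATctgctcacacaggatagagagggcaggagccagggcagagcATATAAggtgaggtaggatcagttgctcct
Hbb-bt, chr7:103813924-103814073, minus strand: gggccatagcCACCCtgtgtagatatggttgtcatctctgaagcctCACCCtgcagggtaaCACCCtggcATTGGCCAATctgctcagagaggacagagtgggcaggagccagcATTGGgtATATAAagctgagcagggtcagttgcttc

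The RefSeq promoter entries span 300 bases around the start, and those of Hba-a1 and Hba-a2 shared 1 run of 297 bases at an offset of 3 bases, so the window of Hba-a2 is not printed. RefSeq and GENCODE place the starts differently. By the GENCODE spans above, the windows of Hba-a1 and Hbb-bs lie within their genes, and that of Hbb-bt partly does. All 4 promoters held ATATAA and also both other motifs. Among 32851 promoter windows of 150 bases, 5.35% held ATATAA, 37.4% CACCC and 24.5% CCAAT on either strand. GATAA, found in 13.3% of the windows, was in none of the 4, which says only that these letters are not in this window. Hbb-bt held 3 CACCC matches and Hbb-bs 1. The promoters of Hbb-bs and Hbb-bt were identical at 73.2% of aligned positions, and alpha against beta promoters at 50.3 to 53.0%. Within the transcripts, 58.9% of the 90-base windows of Hba-a1 were also in Hba-a2, and 63.3% of those of Hbb-bs were also in Hbb-bt, while no window was shared between an alpha and a beta gene. In the last 300 bases, which a 3′ assay mostly reads, 57.3% of the Hba-a1 windows were in Hba-a2 and 24.6% of the Hbb-bs windows in Hbb-bt. The split between Hba-a1 and Hba-a2 is therefore uncertain, and that between Hbb-bs and Hbb-bt less so. No alpha window was shared with a beta gene, but the alpha pair shares more of these last bases than the beta pair. Whether reads that match both genes of a pair lower the alpha count more than the beta count was not tested.

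The files held 68444 barcodes called as cells, of which 39051 were kept, with 8106539 to 18663189 UMIs per library in the kept cells. A UMI marks 1 captured RNA molecule at its 3′ end, so counts carry no gene-length factor. Erythroid cells were those with at least 4 of 12 red cell markers and at least 2 times as many as of any other class. None of the globin genes was among the markers. The gate held 1841 cells, 54 to 367 per mouse, with a median of 9 erythroid markers and of 0 or 1 markers of each other class. The cells were split further into 413 early (Car1 without Slc4a1, Alas2 or Tspo2), 1370 intermediate (both) and 48 late (the later genes without Car1) cells, and 10 had neither. The libraries shared 557 barcode sequences, borne by 1118 cells of which 25 were erythroid.

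Globin RNA rose steeply from the early to the intermediate stage. Hbb-bs, the beta gene with the most UMIs, stood in early cells at 315, 372 and 237 UMIs per 1000000 UMIs outside the 4 genes (CPM) in NZB 1 to 3, at 2788, 433 and 204 CPM in NZW, and at 362, 502 and 144 CPM in NZBWF1. NZW 1, with 11 early cells, stood far above the other 8 mice. In intermediate cells the same gene reached 5203, 6628 and 8059.8 CPM in NZB, 14633, 13661 and 13029 CPM in NZW, and 9320.4, 7215 and 2931 CPM in NZBWF1. The lowest intermediate value was above the highest early one.

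All 4 globin genes were called higher in intermediate than in early cells, in a fit where 26.4% of 8471 genes were called and 15.2% were called higher (edgeR quasi-likelihood test, mouse as a block). The log2 fold changes were 3.82 for Hba-a1 (SE 0.25, adjusted p = 5.13e-06), 3.40 for Hba-a2, 4.38 for Hbb-bs (SE 0.28, adjusted p = 3.91e-06) and 4.48 for Hbb-bt (SE 0.38, adjusted p = 2.89e-05). Each SE of an edgeR fit was taken as the log2 fold change over the square root of the test's F. Hba-a2 had 27 UMIs in early and 982 in intermediate cells. Its adjusted p was still far below the others (5.05e-59 to 4.57e-43 without 1 mouse, edgeR), so its SE and p are not read. Each gene was higher in 9 of 9 mice. Within a mouse the rise of Hbb-bs ran from 5.25-fold to 63.9-fold with a median of 20.3-fold, and that of Hba-a1 from 3.84-fold to 90.9-fold with a median of 13.9-fold. Hba-a2 and Hbb-bt had no UMI in the early cells of NZBWF1 1 and NZBWF1 3, where a count of 0 allows up to 54.4 and 9.20 CPM. In the other 7 mice the rise of Hbb-bt ran from 2.88-fold to 124-fold, and that of Hba-a2 from 4.11-fold to 34.4-fold. The smallest folds of Hba-a1, Hbb-bs and Hbb-bt came from NZW 1. Only NZW 2 had 10 or more late cells, and that 1 mouse against all early cells gave log2 fold changes of 5.74, 4.77, 5.98 and 6.68 in the order Hba-a1, Hba-a2, Hbb-bs and Hbb-bt. With 1 mouse on the late side the spread of late cells between mice is not known, so these are values with no test. A fit that assumes this mouse to vary like the other samples put 1.56% of genes past the threshold, and nothing is read from it.

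**Figure D1:**
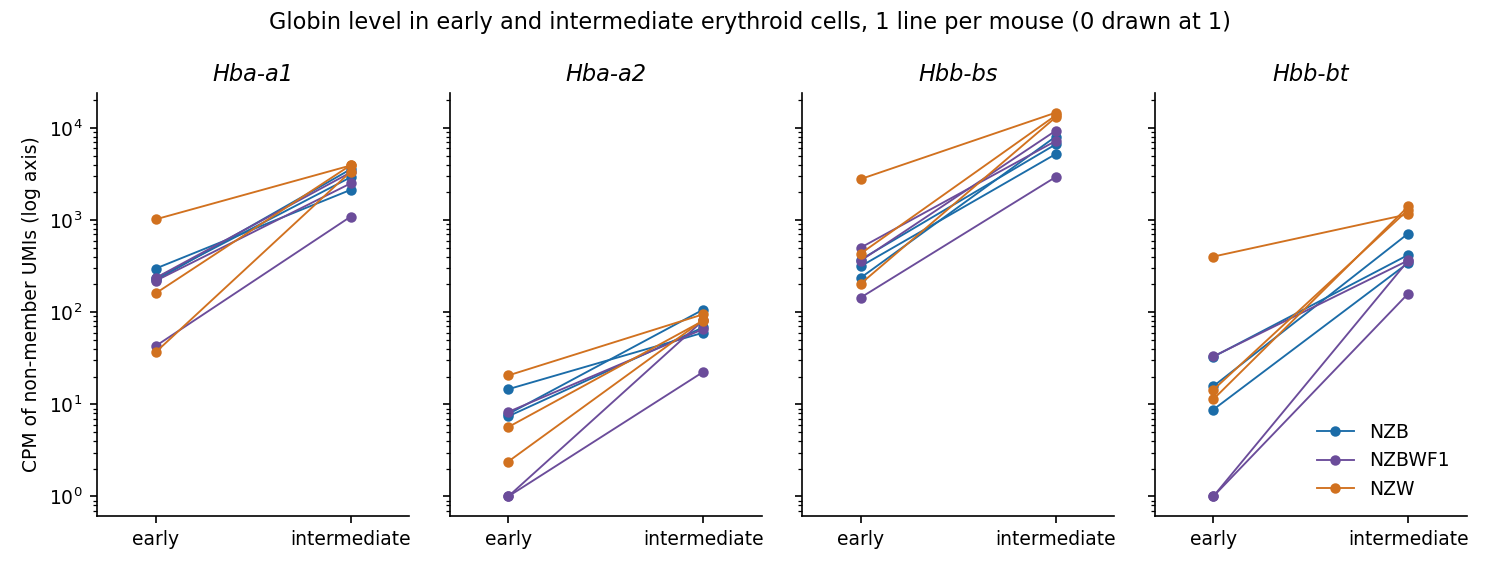
Level of each globin gene in early and intermediate erythroid cells (CPM of UMIs outside the 4 genes, log axis), 1 line per mouse coloured by strain, with a level of 0 drawn at 1. Every line rises, and Hbb-bs goes from 144 to 2788 CPM in early cells to 2931 to 14633 CPM in intermediate cells.

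Over all erythroid cells, the beta genes were highest in NZW. Hbb-bs was at 3474, 4589.9 and 5098 CPM in the 3 NZB mice, at 13812, 12726.5 and 11326 CPM in NZW, and at 9029.6, 6279.8 and 2637 CPM in NZBWF1. Hbb-bt, the beta gene with fewer UMIs, was at 228, 343 and 462 CPM in NZB, at 1107, 1265 and 1219 CPM in NZW, and at 407, 345 and 171 CPM in NZBWF1. For both genes all NZW mice stood above all mice of the other 2 strains, which overlapped. On the mean CPM, NZW exceeded NZB 2.88-fold for Hbb-bs and 3.48-fold for Hbb-bt. B cell markers moved with the strains in the same cells. The 12 of them summed to 3.16 to 9.52 CPM of all UMIs in NZB, 41.0 to 63.4 CPM in NZW and 15.3 to 52.5 CPM in NZBWF1, and 11, 12 and 12 of the 12 had a UMI, with Rag1 at 0 in NZB. The median erythroid cell of every mouse held none of them, and their part in the globin levels was not tested.

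The alpha genes differed less. Hba-a1 was at 1488, 2029 and 2298 CPM in NZB, 3727, 3767 and 2906 CPM in NZW, and 3299.5, 2155 and 1002 CPM in NZBWF1. Hba-a2, whose reads partly match Hba-a1, was at 43.5, 46.6 and 67.5 CPM in NZB, 87.5, 75.9 and 70.8 CPM in NZW, and 75.8, 57.5 and 20.7 CPM in NZBWF1. NZW stood above NZB without overlap for both, by 1.79-fold and 1.49-fold on the means, and the hybrid overlapped both parents. The share of all genes that part the parents without overlap is not given, so for the alpha and beta genes this is a description only. In order of level the genes were Hbb-bs, Hba-a1, Hbb-bt and Hba-a2 in every mouse.

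In the edgeR quasi-likelihood fit over the 9 mice, Hbb-bt was the 1 globin gene of 4 called between the parents, at a log2 fold change of -1.76 in NZB against NZW (SE 0.33, adjusted p = 0.0204), where 9.14% of 8414 genes were called. Hbb-bs was at -1.50 (SE 0.40, adjusted p = 0.0786), Hba-a1 at -0.81 (SE 0.39, adjusted p = 0.314) and Hba-a2 at -0.50 (SE 0.32, adjusted p = 0.445). The call of Hbb-bt was lost without NZB 2 (adjusted p = 0.0915 by edgeR), NZW 1 (0.0539), NZW 2 (0.0764) or NZW 3 (0.0663). It was also lost with no minimum of genes per cell (adjusted p = 0.221) and with at most 5% mitochondrial UMIs (0.0525). Against NZW the hybrid was lower in Hbb-bt, at a log2 fold change of -2.01 (SE 0.34, adjusted p = 0.0392), where 2.23% of genes were called. Hbb-bs was there at -1.11 (adjusted p = 0.313), Hba-a1 at -0.73 (0.538) and Hba-a2 at -0.71 (0.438), all by edgeR. That call of Hbb-bt was lost without NZB 2 (adjusted p = 0.0761), NZW 1 (0.102), NZW 2 (0.129), NZW 3 (0.115) or NZBWF1 2 (0.116), and under 3 other limits on cells whose values are given with the processing alternatives.

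No globin gene was called for the hybrid against NZB, where 1.5% of genes were called, and the log2 fold changes lay between -0.26 and 0.39. None was called for the hybrid against the mean of the parents, where 0.261% were. Hbb-bt was at -1.14 in that contrast (adjusted p = 0.425 by edgeR).

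The mix of stages moved with the strains and stands beside these levels. Intermediate cells made up 60.8% ± 2.37 of erythroid cells in NZB (SD, n = 3), 85.8% ± 3.06 in NZW and 76.7% ± 1.0 in NZBWF1, without overlap (exact permutation test over 280 partitions, p = 0.00357, adjusted p = 0.00714 over 2 shares). Early cells were 36.2% ± 1.93, 11.2% ± 2.25 and 20.2% ± 1.08. The stage gate rests in part on Tspo2, a membrane protein of red cell precursors, which was itself lower in NZB than in NZW erythroid cells (log2 fold change -1.12, adjusted p = 4.21e-07 by edgeR). Car1, the carbonic anhydrase that marks the early side, was at 0.13 (adjusted p = 0.483), and Alas2 and Slc4a1 were at -0.96 and -0.998 (adjusted p = 0.307 and 0.210 by edgeR). A shift of cells between stages and a strain difference in Tspo2 cannot be told apart by this gate. Erythroid cells were 5.33% ± 1.23 of the kept NZB cells, 4.996% ± 2.11 of those of NZW and 3.33% ± 1.58 of those of NZBWF1 (exact permutation p = 0.357).

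Within intermediate cells alone the strain differences were smaller between the parents. Hbb-bt was at 343, 419 and 714 CPM in NZB, 1157, 1293 and 1404 CPM in NZW, and 363, 365 and 159 CPM in NZBWF1. NZW was again above every other mouse. NZB against NZW gave a log2 fold change of -1.35 for Hbb-bt (adjusted p = 0.0955) and -1.03 for Hbb-bs (adjusted p = 0.241 by edgeR), and none of 4 was called where 6.23% of 7768 genes were. The hybrid was lower than NZW in Hbb-bt at -2.15 (SE 0.37, adjusted p = 0.0448 by edgeR), the 1 call of 4 where 2.16% of genes were called. That call remained only without NZB 3 (adjusted p = 0.0150 by edgeR) and was lost without any of the other 8 mice. No globin gene was called for the hybrid against NZB or the parents' mean in these cells, where 1.13% and 0.412% were.

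In early cells none of the 3 genes that passed the filter was called in any contrast, against 2.97%, 0.865%, 0.354% and 0.177% of 5085 genes for NZB against NZW, NZBWF1 against NZB, NZBWF1 against NZW and NZBWF1 against the parents. The rise from early to intermediate was compared between the strains as an interaction over 7670 genes. None of the globin genes was called, against 0.169% of genes for NZB against NZW, 0.013% for NZBWF1 against NZB and 0.0261% for NZBWF1 against NZW.

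The globin genes took 0.521%, 0.696% and 0.786% of erythroid UMIs in the 3 NZB mice, 1.84%, 1.75% and 1.53% in NZW, and 1.26%, 0.876% and 0.382% in NZBWF1. NZW stood above both other strains, and the hybrid mice spanned a range that held all of NZB. The strains differed (exact permutation test, p = 0.0214, adjusted p = 0.0482 over 3 gates), and the call was lost without NZW 1, NZW 2 or NZW 3 (adjusted p = 0.0857 each) or without NZBWF1 2 (adjusted p = 0.0536, exact permutation). In intermediate cells the shares were 0.996% ± 0.231 in NZB (SD, n = 3), 1.85% ± 0.0938 in NZW and 0.904% ± 0.444 in NZBWF1 (exact permutation p = 0.0321, adjusted p = 0.0482). That call was lost without NZB 1, NZB 2, NZW 1, NZW 2, NZW 3 or NZBWF1 2, with adjusted p from 0.0536 to 0.0911 by the exact permutation test. In early cells the share was 0.0587% ± 0.00922 for NZB, 0.169% ± 0.219 for NZW and 0.0516% ± 0.0296 for NZBWF1 (exact permutation p = 0.721). The NZW mean rests on NZW 1, at 0.421% in 11 cells against 0.0610% and 0.0258% in the other 2 mice, and without it was 0.0434% ± 0.0249, below that of NZB.

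The proportion of alpha to beta separated the 3 strains with little spread. Alpha-globin made up 29.3%, 29.6% and 29.9% of globin UMIs in NZB erythroid cells, 20.4%, 21.5% and 19.2% in NZW, and 26.3%, 25.04% and 26.7% in NZBWF1. All NZB mice were above all hybrids, and all hybrids above all NZW mice. The means were 29.6% ± 0.294, 20.4% ± 1.18 and 26.0% ± 0.877 (SD, n = 3 each). The exact permutation test gave p = 0.00357, the smallest that 280 partitions allow, and an adjusted p of 0.0214 over 12 shares. Each pair of strains gave p = 0.1, the smallest that 6 mice allow in a two-sided exact permutation test. Per alpha UMI there were 2.38 ± 0.0337 beta UMIs in NZB, against 3.92 ± 0.286 for NZW mice and 2.84 ± 0.132 for the hybrids. The counting error of the alpha share in a mouse was 0.334 to 1.21 percentage points to each side (Wilson interval, 95%), for counting error only.

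The hybrid lay between its parents in this proportion, 1.06 percentage points above their midpoint of 24.97% and at 0.615 of the way from NZW to NZB. The order was the same within intermediate cells, at 29.2% ± 0.774, 20.2% ± 1.01 and 25.8% ± 0.575 for NZB, NZW and NZBWF1, without overlap (exact permutation p = 0.00357, adjusted p = 0.0214). In early cells the shares were 44.6% ± 6.46, 22.6% ± 5.38 and 30.7% ± 8.26, with NZB above NZW and the hybrid overlapping both (exact permutation p = 0.0321, adjusted p = 0.0643). In the 142 cells with more UMIs of the later genes than of Car1, another cut of stage, it was 26.5% ± 1.31, 22.0% ± 2.14 and 25.4% ± 1.85, where NZB was above NZW without overlap and the hybrid overlapped NZB. Each early value rested on 33 to 610 globin UMIs, and its counting interval reached 3.82 to 15.8 percentage points to each side. The call in all erythroid cells was the same without any 1 mouse, where the NZB minus NZW difference ran from 8.62 to 9.81 percentage points. Reads were mapped to a reference of another strain, and a strain difference in RNA cannot be told apart from one in how well the strain's alleles map.

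**Figure D2:**
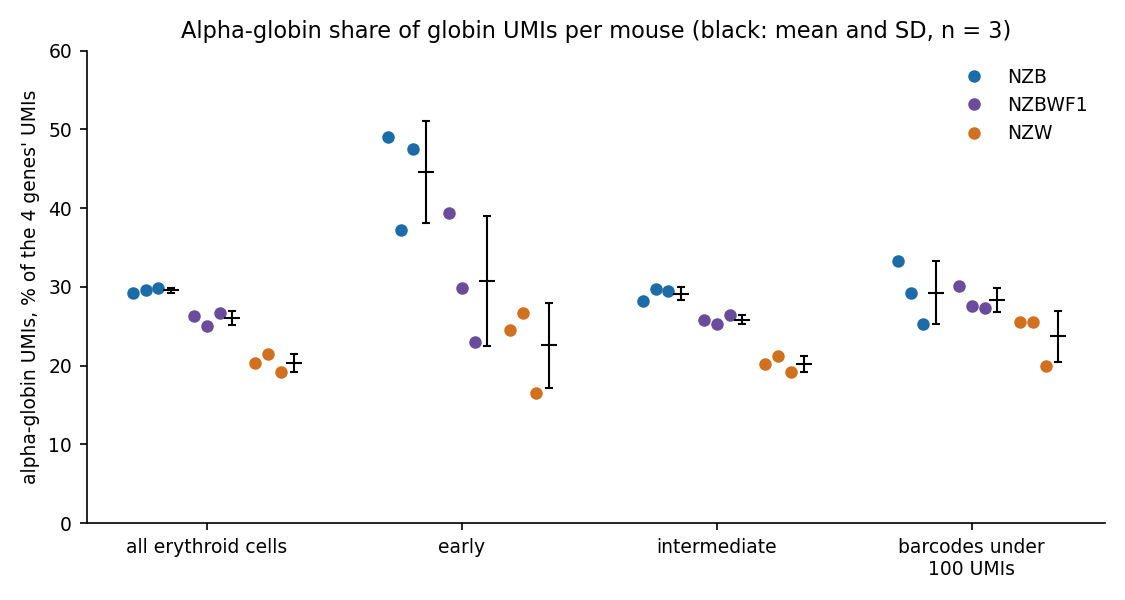
Alpha-globin UMIs as a percent of the UMIs of the 4 globin genes (y axis), 1 point per mouse coloured by strain with the mean and SD in black, in all erythroid cells, early and intermediate cells, and barcodes under 100 UMIs. In all erythroid and in intermediate cells the strains do not overlap, and NZBWF1 (25.04 to 26.7% in all erythroid cells) lies between NZB and NZW.

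The alpha share was also read in cells grouped by their globin UMIs, as a description. In cells with 1 to 9 globin UMIs it was 61.9% ± 6.25 for NZB, 33.9% ± 3.30 for NZW and 47.8% ± 6.25 for NZBWF1. With 10 to 99 globin UMIs it was 37.4% ± 6.26, 19.8% ± 1.15 and 30.7% ± 2.46, and with 100 or more but under 1000 it was 27.7% ± 0.864, 20.3% ± 0.996 and 25.4% ± 0.822. NZW was the lowest strain and NZB the highest in each of these 3 groups of cells, and among them only NZB and NZBWF1 at 10 to 99 UMIs overlapped. From the first group to the second the mean share was lower in each strain. From the second to the third it was lower again in NZB and NZBWF1 and higher in all 3 NZW mice, on the mean by less than the SD between them. Cells with 1000 or more globin UMIs were 17 in NZW, where the share was 18.6 to 22.5% over 3 mice, 2 in NZBWF1, at 24.5% and 19.2%, and none in NZB.

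**Figure D3:**
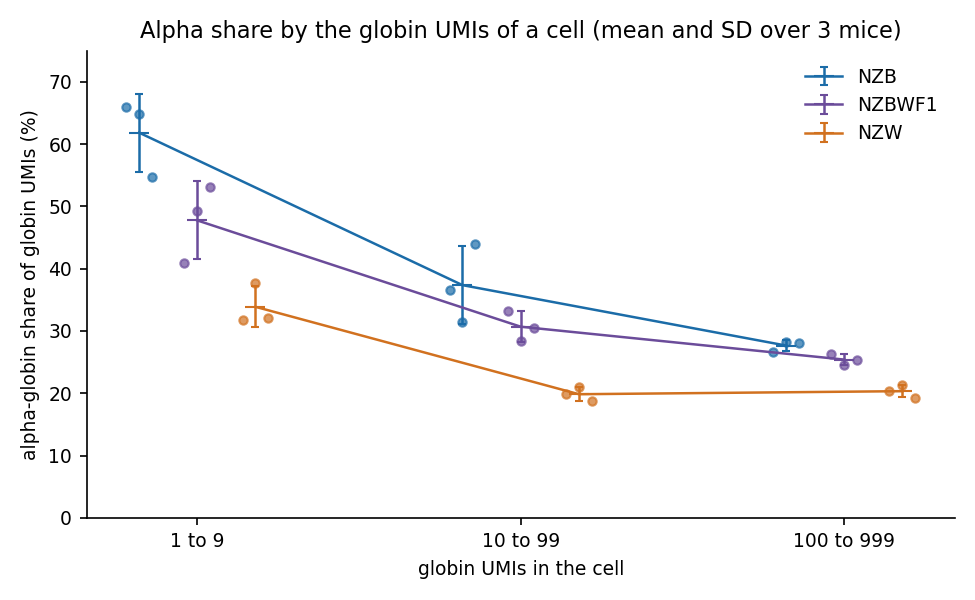
Alpha-globin share of globin UMIs (y axis, percent) in erythroid cells grouped by globin UMIs per cell (x axis), with 1 point per mouse and the mean and SD over 3 mice per strain. From the lowest to the highest group plotted, NZB goes from 61.9% to 27.7%, NZBWF1 from 47.8% to 25.4% and NZW from 33.9% to 20.3%, where NZW is already at 19.8% in the middle group.

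Within the beta pair, the hybrid had the lowest share of Hbb-bt in all erythroid and in intermediate cells. Hbb-bt made up 7.14% ± 1.08 of beta UMIs in NZB erythroid cells (SD, n = 3), 8.73% ± 1.18 in NZW and 5.20% ± 0.887 in NZBWF1. All hybrids were below all mice of both parents, and the parents overlapped. A strain difference in this share cannot be told apart from one in how well the strain's beta alleles map. Over all erythroid cells the strains gave an exact permutation p of 0.0214 and an adjusted p of 0.0514. In intermediate cells the shares were 6.76% ± 1.21, 8.57% ± 1.2 and 4.57% ± 0.733, again with all hybrids lowest (exact permutation p = 0.0143, adjusted p = 0.0429). That call was kept without NZB 3 (adjusted p = 0.0286) and lost without any of the other 8 mice, with adjusted p from 0.0514 to 0.107 by the exact permutation test. In the 1670 cells with more UMIs of Car1 than of the later genes the hybrids were at 3.52%, 4.29% and 4.15%, below NZB (5.67 to 7.43%) and NZW (6.20 to 8.97%). They were also lowest in cells with 10 to 99 globin UMIs, at 2.37 to 3.64% against 3.999 to 6.72% in NZB and 4.45 to 5.62% in NZW. Other cuts did not separate them. The main early gate, with few globin UMIs, gave 0%, 6.18% and 0% in the hybrids, overlapping NZB (2.70%, 8.09% and 6.22%) and NZW (12.6%, 3.21% and 5.26%). At 1 to 9 globin UMIs per cell the hybrids, at 0 to 4.17%, overlapped NZW at 0 to 5.43%, and NZB was at 5.48 to 12.1%. In cells with more UMIs of the later genes than of Car1, Hbb-bt was 5.24%, 8.30% and 12.8% of beta UMIs in the 3 hybrids and 6.38%, 8.66% and 9.20% in the NZB mice, and NZBWF1 3, with 7 such cells, was the highest of all 9 mice. In cells with 100 or more but under 1000 globin UMIs the hybrids ran from 3.86 to 6.58% and overlapped NZB, at 6.01 to 8.45%. In droplets without a cell, Hbb-bt was 8.70% ± 0.549 of beta UMIs in NZB, 10.8% ± 0.819 in NZW and 7.66% ± 1.48 in NZBWF1 (exact permutation p = 0.0143, adjusted p = 0.0429). NZW was there above both other strains, which overlapped, and the call was lost without NZB 1, NZB 2, NZW 1, NZW 2, NZW 3 or NZBWF1 1 (adjusted p from 0.0514 to 0.0929, exact permutation). Hba-a2 was 2.65% ± 0.347, 2.22% ± 0.213 and 2.29% ± 0.289 of alpha UMIs in erythroid cells of NZB, NZW and NZBWF1 (exact permutation p = 0.232, adjusted p = 0.333).

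Globin RNA was concentrated in few cells. Of the 1841 erythroid cells, 1396 held a globin UMI, with a median of 13 globin UMIs over all of them. The 84 cells in which globins were 10% or more of UMIs held 29.9% of the 198673 globin UMIs, and globins reached 47.5% in the highest cell. The median globin UMIs per erythroid cell were 4, 3 and 5 in NZB, 99.5, 68 and 42.5 in NZW, and 27.5, 8.5 and 1 in NZBWF1. NZW was highest in the median cell too, and the hybrid mice spanned NZB. The 5 cells richest in globin held 12.2 to 55.2% of the globin UMIs of a mouse, the most in NZBWF1 1. Of the 84 cells, 11, 30 and 15 came from the NZW mice, 1, 9 and 9 from NZB, and 3, 5 and 1 from NZBWF1. As shares of the erythroid cells of each mouse these were 8.73%, 8.17% and 6.15% in NZW and 1.03%, 2.79% and 4.79% in NZB. In NZBWF1 they were 5.56%, 1.76% and 0.633%, so NZBWF1 1 was close to NZW 3.

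Most globin UMIs of some libraries lay outside the erythroid cells. Erythroid cells held 18.1 to 75.5% of a library's globin UMIs, with a median of 41.4%. Called cells that failed the limits on UMIs, genes or mitochondrial share held 9.00 to 48.8%, and barcodes under 100 UMIs held 3.59 to 30.4%. In 151 of the failing barcodes globins were 10% or more of UMIs, 7 to 39 per mouse, with the most in NZW 1 (39) and NZB 1 (35). Their median UMIs per mouse were 397 to 897, under the minimum of 1000 UMIs, and their median genes 59 to 381, under the minimum of 500.

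**Figure D4:**
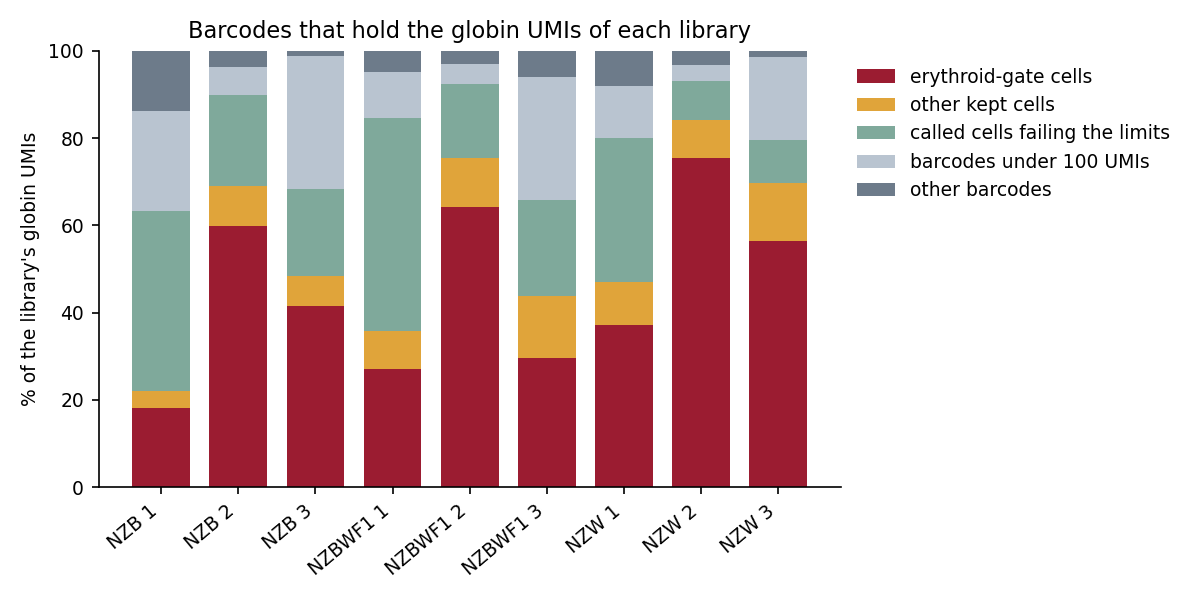
Percent of each library's globin UMIs (y axis) by the kind of barcode that held them, 1 stacked bar per mouse, summing to 100. Erythroid-gate cells hold from 18.1% (NZB 1) to 75.5% (NZW 2).

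Free globin RNA was found in every library. In droplets of 1 to 99 UMIs, globins took 0.869%, 0.233% and 1.13% of UMIs in NZB, 0.796%, 0.420% and 1.302% in NZW, and 0.641%, 0.219% and 0.494% in NZBWF1. The strains overlapped (exact permutation p = 0.471), and mouse 2 was the lowest in each strain. The alpha share of the free RNA was 29.3% ± 4.02 for NZB, 23.7% ± 3.21 for NZW and 28.4% ± 1.54 for NZBWF1 (exact permutation p = 0.139, adjusted p = 0.239).

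The globin UMIs of a class were set beside the amount that free RNA would give in the same mouse. It was taken as the median UMIs of droplets of 3 to 99 UMIs times the globin share of droplets of 1 to 99 UMIs. That median was 4 UMIs in mouse 2 of each strain, near the floor of 3. Erythroid cells held a median over mice of 2369.7 times the free RNA amount, and 600.3 to 9442 times across mice. Neutrophils held 9.60 times it (2.31 to 41.4), granulocyte-monocyte precursors 7.18 (1.82 to 53.4), B cells 3.67 (2.03 to 46.4), monocytes or macrophages 2.42 (1.61 to 10.7) and T or NK cells 2.40 (1.304 to 23.8). A globin UMI was in 9.91% of neutrophils, 13.1% of B cells, 9.55% of monocytes or macrophages and 8.42% of T or NK cells as medians over mice, against 72.2% of erythroid cells. After each cell was thinned to 1000 UMIs the shares were 4.69%, 7.37%, 4.52% and 5.30%, and 52.8% for erythroid cells. Median UMIs per cell were 2299 in neutrophils, 1688 in B cells, 1909 in monocytes or macrophages and 9124 in erythroid cells. The 33 megakaryocytes, 1 to 15 in each of 8 mice, held 0 to 953 times it, with 2 cells of 1% or more globin among them, and are not plotted. The 9165 kept cells in no class, also not plotted, held 62.1 times it (15.3 to 301) and 28692 globin UMIs. Of these cells, 96 with 1% or more globin held 84.0% of those UMIs. At least 4 erythroid markers were found in 334 of the cells in no class. Globin was uneven within a class: 14 neutrophils with 1% or more globin held 53.2% of the 4885 globin UMIs of neutrophils, and 3 B cells held 58.2% of the 2688 of B cells.

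**Figure D5:**
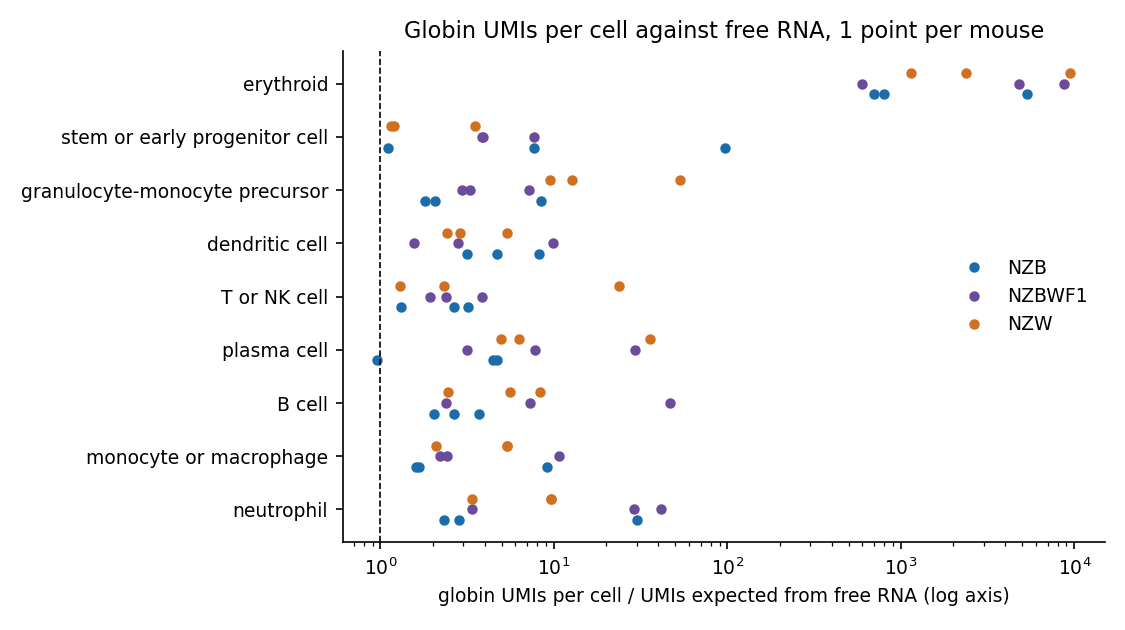
Globin UMIs per cell divided by the UMIs expected from free RNA of the same mouse (x axis, log scale), 1 point per mouse and class coloured by strain, with a dashed line at 1. Erythroid cells sit at 600.3 to 9442, while the medians of the 8 other classes shown are between 2.40 and 9.60.

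Of 44 tests of a globin gene in a contrast of another class, 2 were called. In monocytes or macrophages, Hba-a1 was lower in NZB than in NZW (log2 fold change -1.36, SE 0.37, adjusted p = 0.0107), where 18.1% of 8487 genes were called, and lower in NZBWF1 than in NZW (-1.39, SE 0.34, adjusted p = 0.0474 by edgeR), where 0.86% were. In these cells Hba-a1 was at 38.3, 21.1 and 25.4 CPM in NZW (42, 31 and 38 UMIs), at 6.92, 6.06 and 20.5 CPM in NZB (4, 7 and 15 UMIs), and at 5.46, 9.97 and 14.0 CPM in NZBWF1 (3, 16 and 17 UMIs). All NZW mice were above the others, though NZW 2 by little above NZB 3. The call of NZB against NZW was lost with at least 6 markers (adjusted p = 0.0908 by edgeR), and that of NZBWF1 against NZW with at least 6 markers (adjusted p = 0.443) or 4 times as many markers as of any other class required (0.0589). None was called in monocytes or macrophages for NZBWF1 against NZB (11.3% of genes called) or against the parents (0.943%). None was called in the other classes, taken in the order NZB against NZW, NZBWF1 against NZB, NZBWF1 against NZW and NZBWF1 against the parents. In neutrophils 8.8%, 2.96%, 1% and 0.365% of genes were called, and in B cells 2.72%, 0.655%, 0.645% and 0.229%. In T or NK cells 1.37%, 0.412%, 0.33% and 0.165% were called, in dendritic cells 5.82%, 2.58%, 1.5% and 0.529%, and in granulocyte-monocyte precursors 8.55%, 1.15%, 0.767% and 0.176%. The part of free RNA and of cells caught with an erythroid cell in these UMIs was not tested.

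The genes that supply haem were read from lists chosen by function. Of 8 haem synthesis genes, 3 fell in NZB against NZW and none rose, where 5.11% of all genes tested were lower and 4.03% higher, with a median log2 fold change of -0.46 beside 0.01 over all genes. Those called were Alad, which joins the early precursors (-1.17, adjusted p = 5.83e-08), Ppox (-0.73) and Fech, which inserts the iron (-0.62). Alad rose in NZBWF1 against NZB (0.55), where 1.06% of all genes did. Alad (-0.62) and Fech (-0.52) fell in NZBWF1 against NZW, where 1.25% of all genes did, all by edgeR. Within intermediate cells alone Alad was the 1 of the 8 called between the parents (-0.998), where 6.23% of all genes were, and Fech was at -0.41 (adjusted p = 0.0507 by edgeR). In these cells none of the 8 was called for NZBWF1 against NZB, where 1.13% of all genes were. Lower in NZBWF1 than in NZW there were 2 of the 8, beside 1.21% of all genes. From early to intermediate cells all 8 rose, where 15.2% of all genes did. One of them, Alas2, the red cell enzyme of the first step, is itself a gene of the stage gate. The list had a median log2 fold change of 1.04.

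Of 10 iron supply genes, Ftl1, the ferritin light chain, was the 1 called between the parents, at 4.83 in NZB against NZW (adjusted p = 2.57e-10 by edgeR). That count is near the 9.14% called over all genes. It was at 3.90 in NZBWF1 against NZW, -0.93 against NZB and 1.48 against the parents' mean, each called. Near-identical copies of its sequence occur elsewhere in the genome, so its count is uncertain. Of the 10 genes 8 rose and none fell from early to intermediate cells, beside 15.2% and 11.1% of all genes.

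Of 12 regulators of globin genes, 2 rose and 1 fell in NZB against NZW, beside 4.03% and 5.11% of all genes. Myb (0.59) and Bcl11a (0.31) were higher, and Gata1 (-0.41) was lower. Myb keeps precursors immature, BCL11A represses embryonic and fetal globin genes, and GATA1 is the main red cell activator. Myb was also higher in NZBWF1 than in NZW (0.73). From early to intermediate cells 9 rose and 2 fell, beside 15.2% and 11.1% of all genes, with Sox6, a partner of BCL11A, at 2.99, Bcl11a at -0.27 and Myb at -1.03. Within intermediate cells alone Gata1 was again lower in NZB than in NZW (-0.41, adjusted p = 0.0298), while Bcl11a was at 0.28 (adjusted p = 0.115) and Myb at 0.17 (adjusted p = 0.657 by edgeR). In these cells Myb was higher in NZBWF1 than in NZW (0.78, adjusted p = 0.00229) and than in the parents' mean (0.70, adjusted p = 0.00810 by edgeR). Of 7 genes of globin translation, turnover and redox care, Hspa8, a chaperone, was higher (0.46) and Prdx2, the peroxiredoxin of red cells, was lower (-0.38) in NZB against NZW, 2 of 7 where 9.14% of all genes were called. Within intermediate cells Hspa8 was again higher (0.40, adjusted p = 0.00794), and Prdx2 was at -0.23 (adjusted p = 0.201 by edgeR). From early to intermediate cells 4 of the 7 rose and 1 fell, Hspa8 (-0.12), beside 15.2% and 11.1% of all genes.

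Of the embryonic and theta globin genes, Hbq1b was the 1 tested. It had 154 UMIs in erythroid cells and was lower in NZB than in NZW (log2 fold change -1.52, adjusted p = 0.0121 by edgeR), where 9.14% of all genes were called. This rests on few UMIs, 3, 8 and 13 in the NZB mice against 14, 42 and 44 in NZW. Within intermediate cells alone it was again called lower (-1.33), where 6.23% of all genes were called. It rose with stage by 2.36, where 15.2% of all genes rose. Hbb-y had 6 UMIs in erythroid cells, and Hba-x, Hbb-bh1, Hbb-bh2 and Hbq1a had none. The genes whose log2 levels over the 19 mouse and stage sums were most like the summed globins were Ube2c (Pearson r = 0.961), Nudt4 (0.959), E2f2 (0.949), Cenpf (0.948) and Fam53b (0.945) of 8425 genes, as a description, since the points share mice and libraries. These r include the step between stages. In that order r was 0.839, 0.840, 0.463, 0.799 and 0.626 within early cells. Within intermediate cells it was 0.826, 0.958, 0.947, 0.761 and 0.824.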

How the data were processed

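Single-cell libraries (10x Chromium, 3′) were counted by the authors with Cell Ranger 3.1.0 after bcl2fastq 2.20 on mm10, per the submitters' processing notes. The deposited values are whole UMI counts per gene and barcode in a merged filtered and unfiltered matrix, and libraries were told apart by the number after each barcode. The sources do not say whether merging thinned the libraries.

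Kept cells had at least 1000 UMIs and 500 genes, with 10% or less of the UMIs from the 13 mitochondrial genes. No doublet caller was run. Cells with fewer than 2 times as many markers of their class as of any other were left out, and leaving out the 5% of cells with the most UMIs was an alternative. UMIs were summed per mouse and gate, and a mouse needed 10 cells. Sums were tested with edgeR 4.0.16 in R 4.3.3 (quasi-likelihood, TMM, Benjamini-Hochberg adjustment over all genes tested, threshold 0.05), with DESeq2 1.42.0 as an alternative. Shares were tested with two-sided exact permutation tests over the mice (scipy 1.17.1, numpy 2.4.6). Each mouse was a separate animal. On simulated counts for 8280 erythroid genes, the edgeR step recovered 199 of 200 changed genes and called 8 others. The planted changes were large, lay in genes with higher counts, and used the spread that the fit had estimated. They do not give the power for smaller changes or lower counts. The alternatives were other normalizations, filters, gates, limits on cells, and leaving out each mouse.

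The genes named were the globin genes, all other globin genes, up to 4 genes per functional list by the smallest adjusted p, and the 5 genes most like the globins over mouse and stage sums. Gate genes are named where a gate rests on them. The members and lists were chosen with earlier results of these data known.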

Additional observations from a re-analysis of the deposited data

How the results depend on the processing

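The limits are few cells and few mice. Globin UMIs come from 54 to 367 erythroid cells per mouse, calls of single genes rest on 3 mice per strain, and late cells suffice in 1 mouse only. In all erythroid cells 1 globin gene was called for NZB against NZW. That count became 0 with no minimum of genes or at most 5% mitochondrial UMIs, 4 without the 5% of cells with the most UMIs, 2 without cells of 10% or more globin UMIs (a limit on the tested value itself, chosen after seeing the data), 2 by DESeq2, and 0 to 3 without 1 mouse. For NZBWF1 against NZW the count of 1 became 0 with no minimum of genes (Hbb-bt -1.35, adjusted p = 0.472 by edgeR), at most 5% mitochondrial UMIs (-2.02, adjusted p = 0.176) or 4 times as many markers as of any other class required (-2.07, adjusted p = 0.0525). It became 3 without the 5% of cells with the most UMIs, and 0 to 1 without 1 mouse. Calls over all genes moved too. At most 5% mitochondrial UMIs gave 320 in place of 769 for NZB against NZW, and 49 in place of 188 for NZBWF1 against NZW. For the latter, leaving out the 5% of cells gave 402. Whether the globin counts moved beyond this was not tested. In intermediate cells, without 1 mouse, 0 to 2 globin genes were called for NZB against NZW (297 to 634 of all genes). For NZBWF1 against NZW 0 to 1 were (89 to 276 of all genes). With early and late set by the larger of Car1 and the later genes, the early gate held 1670 of the 1841 erythroid cells, against 413 with the main stages. It then took in most cells that the main stages call intermediate. In this wider gate 2 globin genes were called for NZB against NZW and 1 for NZBWF1 against NZW. Over all genes that cut called 759 and 173 in these contrasts, against 151 and 18 with the main stages. In other classes the 2 calls became 0 with at least 6 markers and 1 with 4 times as many markers as of any other class required. The cause of these changes was not tested.

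The labels give the mice of each strain the numbers 1 to 3. Over all genes the deviations of mice with the same number correlated at -0.0267 to 0.0864 over 9 pairs, against -0.0809 to 0.0516 over the other 18, and the labels state no shared origin, so the numbers were not taken as pairs. Some single measures had the same order by number in all 3 strains: mouse 1 had the lowest and mouse 3 the highest Hbb-bt share in erythroid cells, mouse 1 the lowest and mouse 2 the highest erythroid percent, mouse 1 the highest and mouse 3 the lowest alpha share of free RNA, and mouse 2 the least free globin. With a replicate block, no globin gene was called (0 in place of 1) for NZB against NZW (Hbb-bt -1.76, adjusted p = 0.0700 by edgeR), NZBWF1 against NZW (-2.03, adjusted p = 0.114) or NZBWF1 against NZW in intermediate cells (-2.15, adjusted p = 0.134). The block turned Hba-a1 to -0.016 in NZBWF1 against NZB.

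Directions turned only in values that had not passed their test. For NZBWF1 against NZB they were Hba-a1 at -0.083 with 4 times as many markers as of any other class required, Hba-a2 at 0.077 with at most 5% mitochondrial UMIs, and Hbb-bt at 0.26 with no minimum of genes and 0.23 with at most 5% mitochondrial UMIs. Hba-a1 was at 0.010 for NZBWF1 against the parents with no minimum of genes. In the 1670 cells that are early by the larger count, it was at -0.71 for NZB against NZW and 0.023 for NZBWF1 against NZB. The erythroid percent of kept cells, NZB minus NZW, turned to -0.00225 percentage points with at least 6 markers and to -0.145 with no minimum of genes. Without 1 mouse, uncalled log2 fold changes turned in these ranges. In all erythroid cells, NZBWF1 against NZB ran from -0.31 to 0.42 for Hba-a1, -0.52 to 0.19 for Hba-a2 and -0.44 to 0.032 for Hbb-bt, and Hba-a1 from -0.72 to 0.0083 for NZBWF1 against the parents. In early cells, NZB against NZW ran from -0.73 to 1.27 for Hba-a1 and -2.29 to 0.78 for Hbb-bt, NZBWF1 against NZB from -0.73 to 0.57 for Hbb-bs and -6.21 to 0.44 for Hbb-bt, NZBWF1 against NZW from -1.70 to 0.58 for Hba-a1, -2.22 to 0.11 for Hbb-bs and -7.69 to 0.50 for Hbb-bt, and NZBWF1 against the parents from -1.47 to 0.13 for Hbb-bs and -6.95 to 0.11 for Hbb-bt. In intermediate cells, Hba-a2 ran from -0.34 to 0.060 for NZB against NZW, and Hbb-bs from -0.39 to 0.25 for NZBWF1 against NZB.

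Without 1 mouse, the NZB minus NZW difference in percentage points ran from -2.24 to -1.09 for the Hbb-bt share of beta in erythroid cells, -2.50 to -1.23 in intermediate cells, -3.25 to 1.44 in early cells and -2.41 to -1.67 in free RNA. It ran from 19.0 to 25.7 for the alpha share in early cells, 3.55 to 7.58 for that of free RNA, -3.93 to 2.003 for the Hba-a2 share in early cells, -1.13 to -0.965 for the globin share of UMIs in erythroid cells, -0.182 to 0.0154 in early and -0.973 to -0.742 in intermediate cells, -0.700 to 1.41 for the erythroid percent and -0.306 to 0.159 for free RNA. The Hbb-bt share in erythroid cells passed the threshold with no minimum of genes (-1.70, adjusted p = 0.0429, exact permutation), without the 5% of cells with the most UMIs (-2.16, adjusted p = 0.0286) and without shared barcodes (-1.72, adjusted p = 0.0343). Without 1 mouse it passed in 2 of 9 cases (lowest adjusted p = 0.0343, exact permutation). The alpha share in early cells and that of free RNA each passed in 1 of 9 cases (adjusted p = 0.0429, exact permutation). With stages set by the larger count, the early gate held 1670 of the 1841 erythroid cells. The globin share of UMIs differed in that wider gate (-0.761, adjusted p = 0.0321, exact permutation), and not in the later cells (-2.60, adjusted p = 0.721). The alpha share in erythroid cells kept its order and its call under all 7 alternatives run, with a difference of 7.31 to 12.99 percentage points.

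Over all genes the 769 called for NZB against NZW were 320 to 996 under the alternatives and 493 to 1038 without 1 mouse. The 126 for NZBWF1 against NZB were 10 to 209 and 51 to 192, the 188 for NZBWF1 against NZW were 49 to 402 and 91 to 384, and the 22 for NZBWF1 against the parents were 1 to 67 and 12 to 44. At most 5% mitochondrial UMIs gave the lowest counts in each contrast.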
